A study of Homo sapiens with 14 samples.

Results

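The genes described here are 47 interferon-stimulated and antigen presentation genes, chosen by symbol, and followed in Hep3BTAp73β cells with and without induction of TAp73β. Of the 47, 46 had a probe set that names a single gene in the platform annotation used here, among 19775 genes so measured, and STAT2 was not analysed here. Each gene was read from its probe set of highest mean level. The measured genes were split by role into 24 antiviral effectors, 11 genes of interferon signalling and ISG15 conjugation, and 11 antigen presentation genes.

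Hep3BTAp73β is a hepatocellular carcinoma line derived from Hep3B by stable transfection of a Tet repressor and a TAp73β construct under a doxycycline-responsive promoter, and it was grown from picked resistant colonies. Doxycycline at 1 μg/mL (Dox+) was compared with no doxycycline (Dox−) in 2 cultures of each at 12 h, 2 of each at 24 h and 3 of each at 48 h. Both groups carried the same constructs, and the labels call the cultures biological replicates. No cells without the construct were given doxycycline in the samples used here, so the drug and TAp73β cannot be told apart. Total RNA was hybridised to Affymetrix U133 Plus 2.0 arrays, and levels are log2 values made by RMA, a method that corrects background, equalises the arrays and summarises the probes of a probe set. A difference is always Dox+ minus Dox− on that scale, so that a value of 1 is a doubling. It was tested with limma at each time point, and a gene passed where its Benjamini-Hochberg adjusted p, taken over all 19775 genes, was under 0.05.

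Type I and type III interferons act through JAK kinases on a transcription factor complex that includes STAT2 and IRF9, which binds the interferon-stimulated response element (ISRE) in the promoters of antiviral genes. Interferon-γ acts through a further element, the gamma-activated site (GAS), and through IRF1. Many of the targets are antiviral effectors, and others serve the display of peptides on HLA class I molecules, in which immunoproteasome subunits cut proteins, TAP1 and TAP2 carry the peptides into the endoplasmic reticulum and TAPBP (tapasin) helps to load them. The small modifier ISG15 is attached to proteins by an enzyme chain that includes the E2 enzyme UBE2L6, and it is removed by USP18.

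TP73 lay between 7.89 and 8.30 on the Dox+ arrays and between 5.82 and 6.08 on the Dox− arrays. The hepatocyte transcript ALB was between 14.30 and 14.44 on every array, and all 8 hepatocyte markers listed were measured, of which 5 fell and SERPINA1 rose at 48 h. The leukocyte marker PTPRC (3.44 to 3.88), the plasmacytoid dendritic cell marker CLEC4C (3.35 to 4.12) and the endothelial marker CDH5 (3.54 to 3.88) lay near or below the 25th percentiles of the arrays, which ran from 4.02 to 4.18, while the endothelial markers PECAM1 (6.34 to 7.02) and VWF (4.76 to 5.34) lay above them and did not pass. The leukocyte markers CD14, CD3E and NCAM1 were between 5.16 and 7.12 and did not pass, whereas LYZ was at 10.85 to 12.14 and fell by 0.92 at 48 h, and the part of these transcripts in the results was not tested. Because the RNA came from whole cultures, fewer cells of a kind and less RNA per cell cannot be told apart. Arrays of one group spread more at 12 h (root mean variance over genes 0.209 for Dox− and 0.196 for Dox+) than at 24 h (0.184 and 0.15) or at 48 h (0.105 and 0.111), so the 48 h values are the most precise.

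At 48 h, 19 of the 46 measured genes (41.3%) rose, where 11.3% of all genes rose, and 2 fell, where 12.9% of all genes fell. Their median difference was 0.15, beside −0.02 for all genes. The antigen presentation genes rose in the largest share, 7 of 11 (63.6%), with TAP1, TAPBP, PSMB9, HLA-B, HLA-C, HLA-E and B2M up. Of the signalling and ISG15 conjugation genes 6 of 11 (54.5%) rose, namely IRF9, ISG15, UBE2L6, IRF1, PARP9 and NMI. Of the antiviral effectors 6 of 24 (25%) rose, namely TRIM22, OAS3, GBP2, GBP1, IFIT1 and IFI6. The medians were 0.39, 0.33 and 0.10 in the same order, and the shares of the roles were not tested against each other. TRIM22, TAP1 and IRF9 at least doubled in group means, 3 of the 46, where 1.52% of all genes did so.

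**Figure D1:**
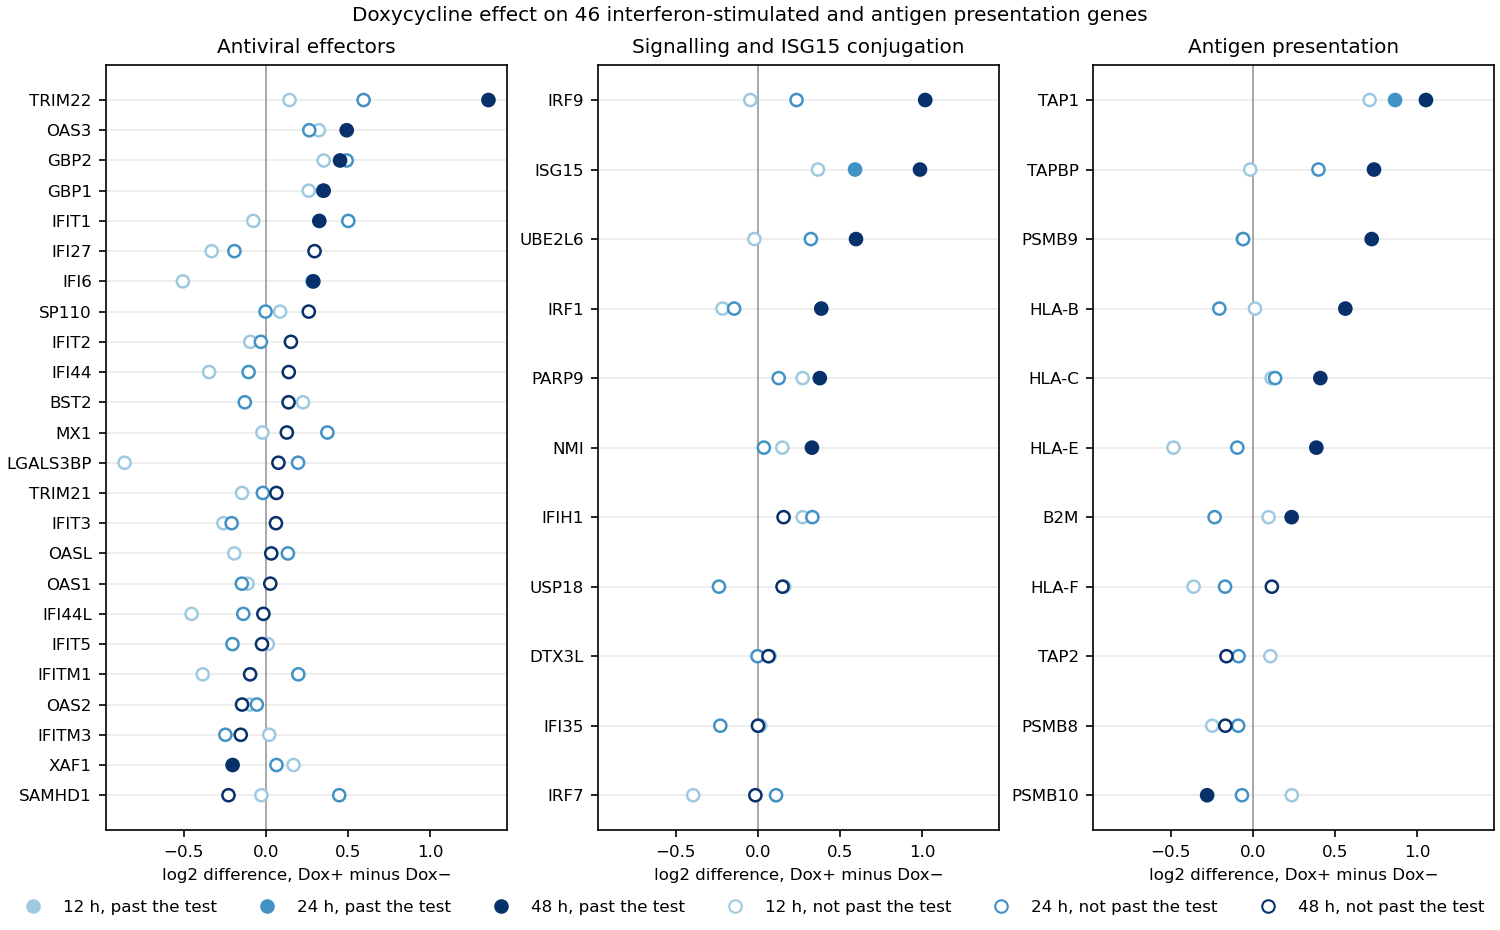
Difference between Dox+ and Dox− (log2, horizontal axis) of each of the 46 measured genes at 12, 24 and 48 h, in 3 panels by role, with genes ordered by the 48 h difference. Filled circles passed limma at an adjusted p of 0.05 over all genes, which none did at 12 h. TAP1 and ISG15 did at 24 h, and 21 did at 48 h, of which 19 lie to the right of 0.

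The promoters of these genes show which of the known elements stand next to their starts. They are given here for some genes that rose and for some others of the list that did not pass the test. In RefSeq windows of GRCh38.p14 that run from 250 bases before to 50 bases after a transcription start, 39 of the 47 genes had a window. The letters searched were the ISRE core GAAANNGAAA and the GAS core TTCNNNGAA, each on both strands. Counted window by window, a match to one overlapped a match to the other 7 times. The 2 windows of IFI27 hold the same overlaps, which were counted in each. The ISRE core was found in windows of 27 of the 39 genes (69.2%) and in 3.57% of all 35116 windows, in a set of genes chosen because interferon is known to induce them. It was found for 10 of the 16 genes with a window that rose at 48 h and for 17 of the 22 measured genes with a window that did not. The GAS core was found for 12 of 39 genes (30.8%, against 7.66% of all windows), 4 of the 16 and 8 of the 22. A share of genes counts a gene once if any of its windows holds the letters, whereas the share of windows counts each window, so the 2 shares are not on the same base.

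Stretches of 60 bases follow for 4 genes that rose, with the matched letters in capitals, written 5′ to 3′ in the direction of transcription. ISG15 (chr1:1013357-1013416, plus strand), TAP1 (chr6:32853795-32853854, minus strand) and TAPBP (chr6:33314079-33314138, minus strand) each hold 2 overlapping ISRE cores, and IRF9 (chr14:24161175-24161234, plus strand) holds a GAS core.
ISG15: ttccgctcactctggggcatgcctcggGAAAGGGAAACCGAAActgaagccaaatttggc
TAP1: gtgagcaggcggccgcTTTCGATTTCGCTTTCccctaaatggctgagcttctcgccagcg
TAPBP: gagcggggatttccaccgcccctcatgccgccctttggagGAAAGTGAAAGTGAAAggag
IRF9: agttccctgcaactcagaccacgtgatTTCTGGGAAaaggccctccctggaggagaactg
The next 3 belong to genes that did not pass the test at any time point. TAP2 (chr6:32838770-32838829, minus strand) is the partner of TAP1, BST2 (chr19:17405721-17405780, minus strand) encodes tetherin, which holds budding virus at the cell surface, and IFI44 (chr1:78649729-78649788, plus strand) is a classical interferon-induced gene. Each holds at least 1 ISRE core, in capitals, and in BST2 a GAS core, left in lower case up to the shared letters, overlaps the first of them.
TAP2: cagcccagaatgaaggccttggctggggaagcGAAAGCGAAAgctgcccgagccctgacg
BST2: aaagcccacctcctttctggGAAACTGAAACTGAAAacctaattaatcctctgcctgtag
IFI44: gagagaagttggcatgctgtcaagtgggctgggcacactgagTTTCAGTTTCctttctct
ISRE core letters thus stood near the starts of genes that rose and of genes that did not pass. A match is a run of letters and not a measured binding site.

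Among the antigen presentation genes, TAP1 alone passed at both 24 h and 48 h. At 12 h TAP1 was at 6.90 and 7.26 on the Dox− arrays and at 7.86 and 7.72 on the Dox+ arrays, a difference of 0.71 that did not pass (adjusted p = 0.156, limma). At 24 h it was at 7.26 and 6.85 without and at 7.96 and 7.87 with doxycycline, and it rose by 0.86 (SE 0.16, adjusted p = 0.0168, limma). At 48 h the Dox− arrays read 6.87, 6.97 and 6.81 and the Dox+ arrays 7.93, 7.88 and 8.0, a rise of 1.05 or 2.07-fold (SE 0.07, adjusted p = 6.18e-06, limma). The groups did not overlap at any time point. Without Dox− replicate 2 the 24 h rise of TAP1 was 0.66 and did not pass (adjusted p = 0.0574, limma). TAP2, the other chain of the same transporter, differed by 0.10, −0.09 and −0.16 at the 3 time points and did not pass at any (adjusted p = 0.269 at 48 h).

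TAPBP bridges the transporter and HLA class I molecules. On the 48 h arrays TAPBP was at 7.74, 7.86 and 7.93 without doxycycline and at 8.60, 8.51 and 8.63 with it, a rise of 0.74 or 1.67-fold (SE 0.07, adjusted p = 7.78e-05, limma). At 24 h it read 7.89 and 8.04 on the Dox− arrays and 8.30 and 8.42 on the Dox+ arrays, apart but short of the test (0.40, adjusted p = 0.129), and at 12 h the groups overlapped, with 7.93 and 7.88 against 7.87 and 7.91. The other TAPBP probe sets gave 0.09 and 0.37 at 48 h, and neither passed on its own.

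Of the 3 immunoproteasome subunits 1 rose and 1 fell at 48 h. PSMB9, the β1i subunit, was at 4.61, 4.38 and 4.43 on the Dox− arrays and at 5.26, 5.24 and 5.07 on the Dox+ arrays at 48 h, a rise of 0.72 or 1.65-fold (SE 0.08, adjusted p = 2.48e-04, limma). Its groups were separate at 48 h, while at 24 h they overlapped (4.78 and 4.97 against 4.90 and 4.72) and at 12 h the Dox+ arrays lay just below (4.80 and 4.79 against 4.76 and 4.72). PSMB8, the β5i subunit, differed by −0.17 at 48 h and did not pass (adjusted p = 0.212). PSMB10, the β2i subunit, fell by 0.28 at 48 h (adjusted p = 0.0442), a call that held in 6 of 15 alternatives. The constitutive counterparts PSMB6, PSMB7 and PSMB5 differed by −0.12, −0.08 and −0.10 at 48 h and did not pass. TAP1 and PSMB9, which are known to be transcribed away from a shared promoter region, both rose at 48 h, and their neighbours TAP2 and PSMB8 did not pass.

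Of the 4 HLA class I heavy chain genes 3 rose at 48 h, as did B2M, their invariant light chain. HLA-B was at 10.11, 10.18 and 10.21 on the Dox− arrays and at 10.76, 10.76 and 10.67 on the Dox+ arrays, a rise of 0.56 or 1.48-fold (SE 0.06, adjusted p = 1.88e-04, limma). At 24 h the Dox+ arrays of HLA-B lay below the Dox− arrays (10.01 and 10.13 against 10.19 and 10.36), which did not pass (−0.21, adjusted p = 0.441), and at 12 h the groups overlapped (10.22 and 10.01 against 10.27 and 9.99). HLA-C rose by 0.41 (adjusted p = 7.52e-04), HLA-E, which presents leader peptides to natural killer cells, by 0.38 (adjusted p = 0.00407) and B2M by 0.23 (adjusted p = 0.0197). HLA-F differed by 0.11 and did not pass (adjusted p = 0.268). The probe sets read for these 4 HLA genes can share sequence with other HLA genes. The HLA-B probe set that varied most over the arrays gave 0.24 (adjusted p = 0.0269, limma). With probe sets of this kind left out HLA-B and HLA-C could not be read. Both other HLA-E probe sets rose, by 0.55 for one of this kind and by 0.46 for one that is not. The rise of B2M did not pass without Dox− replicate 1 or without Dox− replicate 2.

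**Figure D2:**
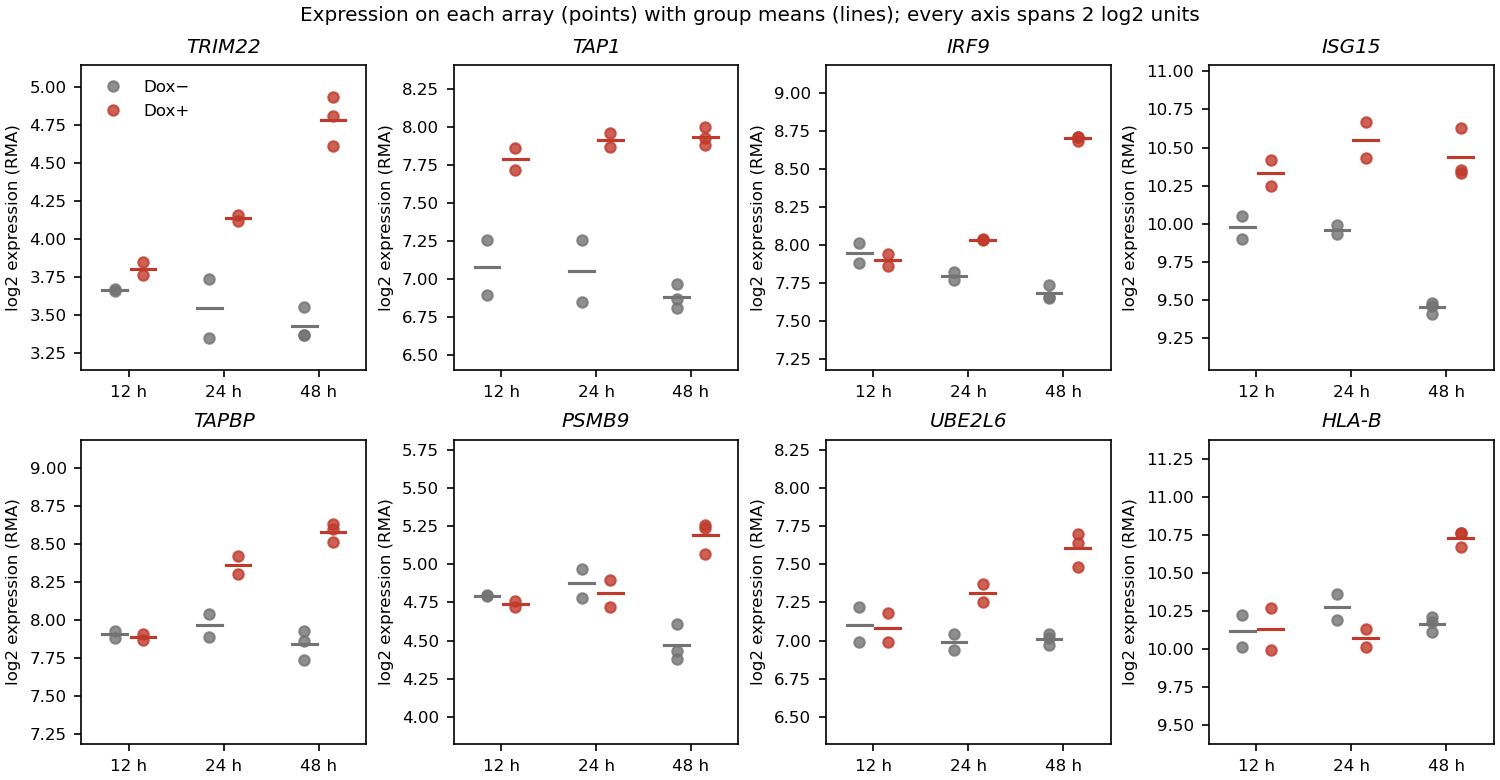
Expression (log2, RMA, vertical axis) of the 8 genes that passed at 48 h with a difference of at least 0.5, on each array at 12, 24 and 48 h, with Dox− in grey, Dox+ in red and group means as short lines; every axis spans 2 log2 units. At 48 h all 3 red points lie above all 3 grey points in each of the 8 panels, which largely follows from picking the genes by their 48 h difference. At 12 h the groups of IRF9, TAPBP, UBE2L6 and HLA-B overlap.

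In the signalling group, IRF9, the DNA-binding part of the complex that binds the ISRE, passed at 48 h and not before. IRF9 was at 8.01 and 7.88 on the Dox− arrays and at 7.94 and 7.86 on the Dox+ arrays at 12 h, so that the groups overlapped. At 24 h it read 7.82 and 7.77 without and 8.03 and 8.04 with doxycycline, a difference of 0.23 that did not pass (adjusted p = 0.344). At 48 h the Dox− arrays read 7.65, 7.66 and 7.74 and the Dox+ arrays 8.71, 8.68 and 8.71, a rise of 1.02 or 2.03-fold (SE 0.06, adjusted p = 3.32e-06, limma). IRF1, an activator of HLA class I and other interferon-γ targets, rose by 0.39 at 48 h (adjusted p = 0.00342), but its other probe set gave 0.14 and did not pass. IRF7, which drives interferon-α genes, differed by −0.02 (adjusted p = 0.915).

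ISG15 and its E2 enzyme rose, and the enzyme that removes ISG15 did not pass. ISG15 was at 10.05 and 9.90 on the Dox− arrays and at 10.25 and 10.42 on the Dox+ arrays at 12 h (0.37, adjusted p = 0.358). At 24 h it read 9.99 and 9.93 without and 10.43 and 10.67 with doxycycline, a rise of 0.59 (SE 0.14, adjusted p = 0.0418, limma), which did not pass without Dox− replicate 1 (adjusted p = 0.103), Dox− replicate 2 (adjusted p = 0.109) or Dox+ replicate 2 (adjusted p = 0.21). At 48 h the Dox− arrays read 9.41, 9.48 and 9.46 and the Dox+ arrays 10.33, 10.35 and 10.63, a rise of 0.99 or 1.98-fold (SE 0.08, adjusted p = 4.8e-05, limma). The groups of ISG15 did not overlap at any time point, and its 12 h difference did not pass.

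UBE2L6 was at 7.04, 6.97 and 7.02 on the Dox− arrays and at 7.48, 7.70 and 7.64 on the Dox+ arrays at 48 h, a rise of 0.60 or 1.51-fold (SE 0.07, adjusted p = 3.1e-04, limma). At 24 h its groups were apart (6.94 and 7.04 against 7.37 and 7.25) without passing (0.32, adjusted p = 0.204), and at 12 h they overlapped (7.22 and 6.99 against 7.18 and 6.99). USP18 differed by 0.15 at 48 h (adjusted p = 0.11). Of the partners PARP9 and DTX3L, which form a complex and are known to share a promoter region, PARP9 rose by 0.38 (adjusted p = 0.00207) and DTX3L differed by 0.06 (adjusted p = 0.466). The other PARP9 probe set gave −0.02. NMI, which binds STAT proteins and IFI35, rose by 0.33 (adjusted p = 0.00903) but did not pass when all arrays were fitted together, and IFI35 did not pass (adjusted p = 0.999). The RNA sensor IFIH1 differed by 0.16 (adjusted p = 0.187).

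Of the antiviral effectors TRIM22, a ubiquitin ligase that restricts retroviruses, had the largest difference of the 46 genes. On the 12 h arrays TRIM22 was at 3.67 and 3.66 without and at 3.85 and 3.76 with doxycycline (0.14, adjusted p = 0.682). At 24 h the Dox− arrays read 3.35 and 3.74 and the Dox+ arrays 4.16 and 4.12, a difference of 0.59 that did not pass (adjusted p = 0.0612). At 48 h they read 3.55, 3.37 and 3.37 against 4.61, 4.93 and 4.81, a rise of 1.35 or 2.56-fold (SE 0.09, adjusted p = 9.9e-06, limma). The Dox− arrays of TRIM22 lay below the 25th percentile of every array, and signal over background was not measured.

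The other effectors that rose at 48 h did so by less than 0.5. OAS3, one of the oligoadenylate synthetases, which sense double-stranded RNA, rose by 0.49 (adjusted p = 0.01), but its other probe set gave −0.01, and the related OAS1 and OAS2 differed by 0.03 and −0.15 without passing. The guanylate-binding proteins GBP2 and GBP1, interferon-γ-induced GTPases, rose by 0.45 (adjusted p = 0.00366) and 0.35 (adjusted p = 0.0252), and the other GBP2 probe set rose by 0.44. IFIT1, which binds viral RNA caps, rose by 0.32 (adjusted p = 0.0131) and IFI6 by 0.29 (adjusted p = 0.0348), and neither passed when all arrays were fitted together. The rises of IFI6 and GBP1 each failed when single arrays were left out, 5 arrays in turn for IFI6 and 4 for GBP1. Mean levels at 48 h without and with doxycycline were 3.63 and 3.95 for IFIT1 and 3.66 and 4.01 for GBP1. These lay below the lowest 25th percentile of an array (4.02), and signal over background was not measured.

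Most of the textbook effectors did not pass. The differences at 48 h were 0.13 for the dynamin-like GTPase MX1, 0.06 for IFIT3, 0.15 for IFIT2, −0.02 for IFIT5, 0.14 for IFI44, −0.02 for IFI44L, 0.30 for IFI27, 0.14 for BST2 and 0.03 for OASL. IFITM1 and IFITM3, which block virus entry, differed by −0.10 and −0.15, SAMHD1, which depletes nucleotides, by −0.23 and SP110 by 0.26, and LGALS3BP and TRIM21 by 0.08 and 0.06. XAF1, a pro-apoptotic interferon target, fell by 0.20 (adjusted p = 0.0437), a call that held in 3 of 14 alternatives and whose other probe sets gave 0.00 and 0.09. A difference that did not pass is not shown to be 0. Mean levels at 48 h without and with doxycycline were 3.8 and 3.9 for IFI44 and 3.8 and 3.8 for IFI44L. Those of IFI27 were 4.3 and 4.6 and those of IFITM3 12.0 and 11.9. Signal over background was not measured, so for the dim genes an absent response and an unreadable signal cannot be told apart. With dim genes left out, 23 genes of the list remained. Those dropped included IFI44, IFI44L and IFI27, and also the risen genes TRIM22, PSMB9, OAS3, IFIT1, GBP1 and IFI6. Of the 23 genes that remained, 15 rose and 3 fell at 48 h. Over all genes kept by this filter 2138 rose and 2900 fell. The number of all genes kept is not given here, so no share over all genes stands beside these counts.

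Several of these genes have more than 1 probe set, and not every one gave the same answer. The 46 genes have 90 probe sets, and 23 genes have more than 1. Of the 19 genes that rose, 10 had another probe set, and of those 18 other probe sets 15 were positive and 6 rose on their own. Over all 54613 probe sets 6.69% rose. The 10 genes were picked by their rise on the same arrays, so these counts are not an independent test of it. GBP2, HLA-B, HLA-C and HLA-E were the 4 genes with another probe set up, 1 each for GBP2 and HLA-B and 2 each for HLA-C and HLA-E. Most of these HLA probe sets can share sequence with other HLA genes. For 2 genes that did not pass, another probe set rose: IFIT2 by 0.78 (adjusted p = 0.00167 over all probe sets) and SP110 by 0.31 and 0.30 (adjusted p = 0.0423 and 0.0382). One SAMHD1 probe set fell by 0.42 (adjusted p = 0.0134). The second IFIT3 probe set gave 0.46 (adjusted p = 0.0547). Probe sets can read different transcript ends, and which of them reads the main transcript was not tested.

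**Figure D3:**
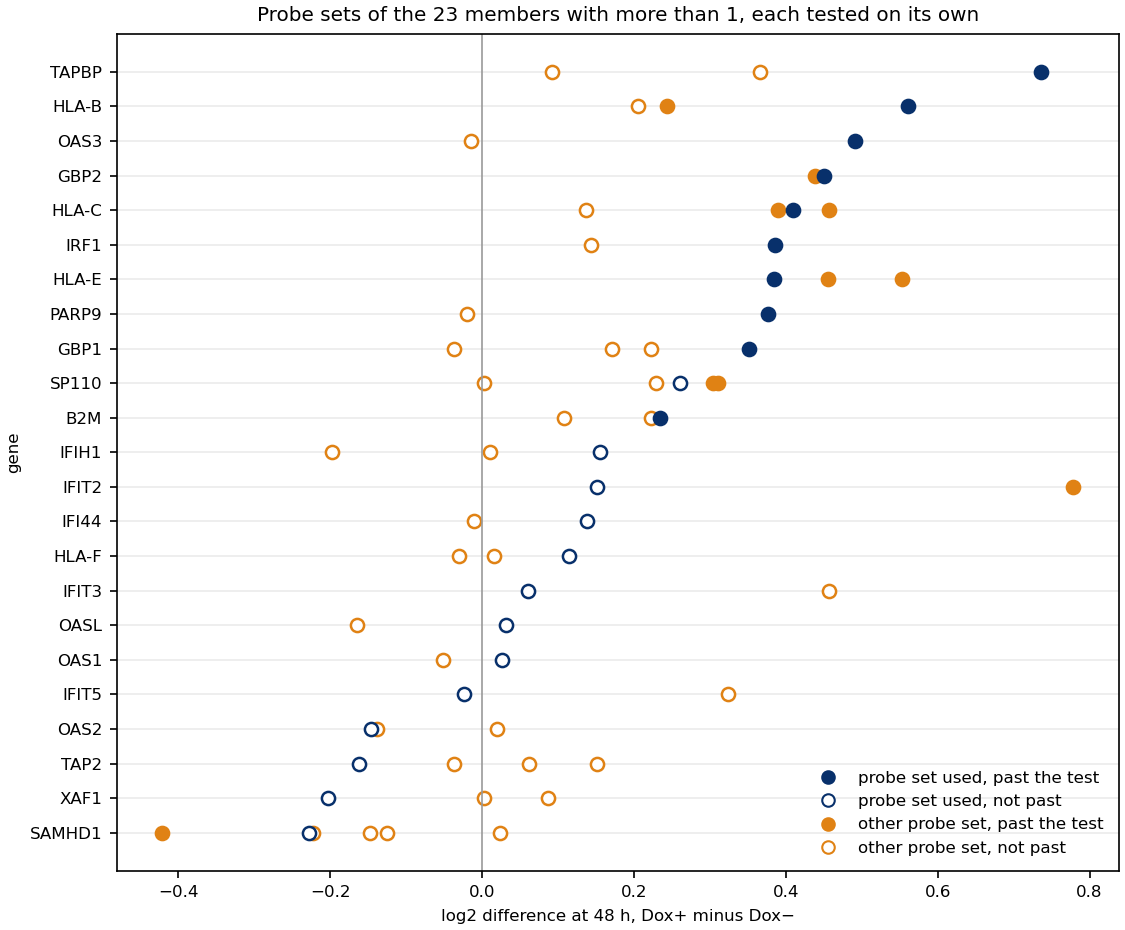
Difference between Dox+ and Dox− at 48 h (log2, horizontal axis) of every probe set of the 23 genes with more than 1, each tested on its own with adjustment over all 54613 probe sets; blue is the probe set read in the text, orange the others, and filled circles passed. TAPBP, OAS3, PARP9 and IRF1 have a filled blue circle and no filled orange one, while IFIT2 has its only filled circle in orange at 0.78.

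Before 48 h few of these genes passed. At 12 h 0 of 46 rose, where 0.647% of all genes rose, and 0 fell, where 0.0202% of all genes fell; without adjustment 2 were higher and 5 lower at p under 0.05, where 7.15% of all genes were higher and 6.5% lower. At 24 h TAP1 and ISG15 rose, 2 of 46, where 3.01% of all genes rose, and 0 fell, where 2.81% of all genes fell, and without adjustment 10 were higher and 0 lower, where 9.85% of all genes were higher and 10.3% lower. The median differences were −0.02 at 12 h and −0.003 at 24 h, beside −0.04 and 0.02 for all genes. Both genes up at 24 h were also up at 48 h, and 17 genes were up at 48 h only. The number and spread of the arrays differ between time points, so these counts do not compare the effects.

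The change of the effect over time was tested on its own, as the 48 h difference minus the 12 h or 24 h difference in a single fit of all arrays. A gene is named only where it passed both with arrays weighted by the spread of their time point and without weights. The effect was larger at 48 h than at 12 h for 5 of the 46 genes, where this held for 0.612% of all genes, and smaller for 0, where 0.44% of all genes were smaller. It was larger than at 24 h for 3 of the 46, where 0.501% of all genes were, and smaller for 0, where 0.157% were. Without adjustment 14 effects were larger and 2 smaller against 12 h, where 6.74% and 7.79% of all genes were, and 12 larger and 1 smaller against 24 h, where 6.89% and 6.45% were. IRF9 passed in both comparisons, by 1.07 against 12 h (adjusted p = 0.00204) and by 0.78 against 24 h (adjusted p = 0.00712). TRIM22 (1.21, adjusted p = 0.0156), HLA-E (0.87, adjusted p = 0.0263) and TAPBP (0.75, adjusted p = 0.0402) passed against 12 h, and PSMB9 (0.78, adjusted p = 0.0331) and HLA-B (0.77, adjusted p = 0.0182) against 24 h. TAP1 did not pass against 12 h (0.34, adjusted p = 0.443), and ISG15 (0.62) passed without weights (adjusted p = 0.0487) but not with them (adjusted p = 0.163). LGALS3BP passed against 12 h (0.94, adjusted p = 0.0333) with a negative 12 h difference, from Dox− arrays at 9.82 and 9.97 and Dox+ arrays at 8.81 and 9.26 (−0.86, adjusted p = 0.113).

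The group means show how each side of the difference moved. Of the 19 genes that rose at 48 h, the Dox+ mean was higher at 48 h than at 12 h for 19, with a median change of 0.37, and the Dox− mean was lower for 13, with a median change of −0.09. Over all 19775 genes the Dox+ mean was higher for 8211 and the Dox− mean lower for 11387, with median changes of −0.04 and −0.06. In IRF9 the Dox+ mean went from 7.90 to 8.70 while the Dox− mean went from 7.95 to 7.68, and in TRIM22 the Dox+ mean went from 3.81 to 4.78 and the Dox− mean from 3.66 to 3.43. In ISG15 the Dox− mean went from 9.97 to 9.45 and the Dox+ mean only from 10.34 to 10.43. TAP1 was already high in Dox+ cells at 12 h, with means of 7.79 at 12 h and 7.94 at 48 h. These genes were picked for their 48 h difference, so the directions describe them and were not tested.

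**Figure D4:**
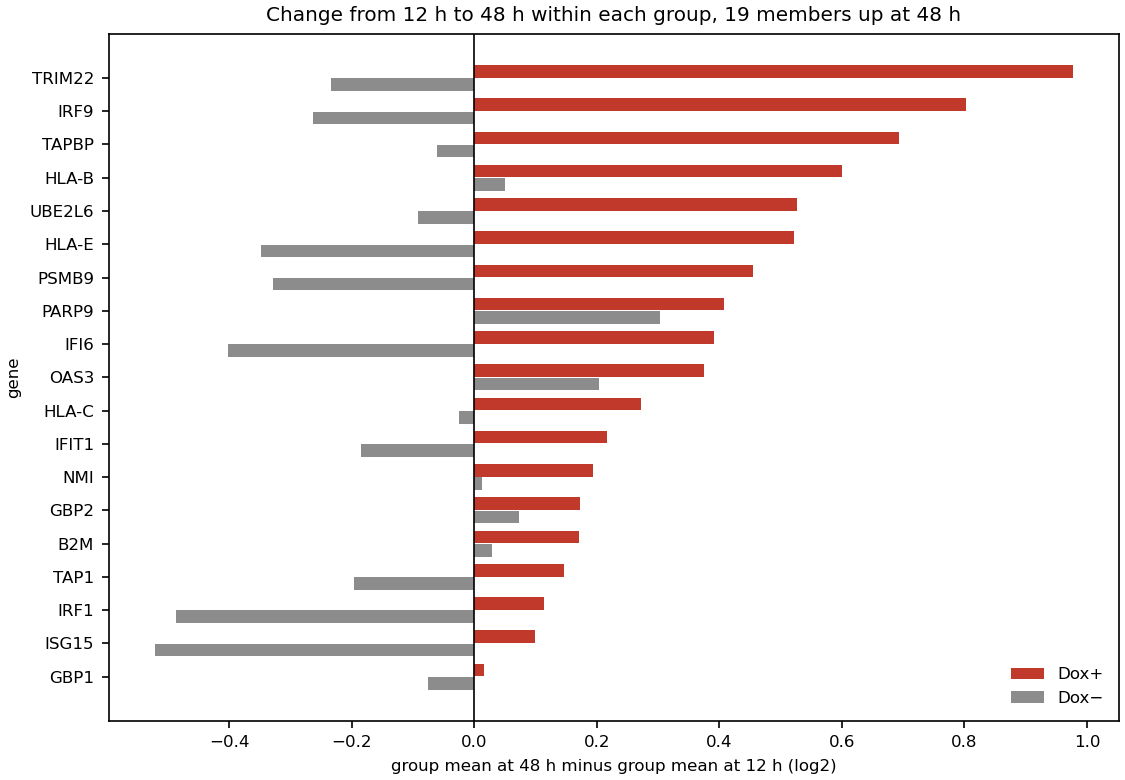
Change of the group mean from 12 h to 48 h (log2, horizontal axis) within Dox+ (red) and Dox− (grey) for the 19 genes that rose at 48 h, ordered by the Dox+ change; bars start at 0 and have no error bar. All 19 red bars lie to the right of 0, and 13 grey bars lie to the left, the longest of them for ISG15 and IRF1.

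Other genes of the pathway were read from a list of 90, of which 84 were measured. At 48 h 16 of them (19%) rose and 4 (4.76%) fell, beside 11.3% and 12.9% of all genes, with a median difference of 0.04. At 24 h 3 (3.57%) rose, beside 3.01% of all genes, TLR3, ERAP1 and CXCL11, the last named after its value was seen. None of the 8 measured interferon genes passed, among them IFNB1, encoding interferon-β (0.29, adjusted p = 0.113). Their group means at 48 h lay between 3.2 (IFNK, Dox−) and 4.54 (IFNL2, Dox+). The 25th percentiles of the arrays ran from 4.02 to 4.18. Signal over background was not measured, so for these genes an absent response and an unreadable signal cannot be told apart. Of the 9 receptors and kinases 4 rose: the kinase JAK2 by 1.23 (adjusted p = 9.67e-04), the interferon-γ receptor chain IFNGR1 by 0.54, and IL10RB and TYK2, named after their values were seen, by 0.33 and 0.27. Of 7 transcription factors NLRC5, an activator of HLA class I genes, rose by 0.48 (adjusted p = 0.0489) and IRF8 fell by 0.37. None of the 4 inhibitors passed.

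Of the 9 sensors and adaptors 3 rose, among them the kinase IKBKE by 0.46. The largest rise was that of TLR3, the receptor for double-stranded RNA, which went from 4.25, 4.54 and 4.38 on the Dox− arrays to 5.79, 5.98 and 6.03 on the Dox+ arrays at 48 h (1.54, adjusted p = 4.72e-06, limma) and had risen by 0.63 at 24 h (adjusted p = 0.0232). Of the 15 other antigen presentation genes 3 rose. ERAP1, the peptidase that trims peptides in the endoplasmic reticulum, was at 8.11, 8.21 and 8.05 on the Dox− arrays and at 8.92, 9.04 and 9.05 on the Dox+ arrays (0.88, adjusted p = 2.26e-05, limma). The class II genes CD74 and HLA-DMA rose by 0.71 and 0.48. The class II genes HLA-DRA and HLA-DPA1, named after their values were seen, differed by 0.14 and 0.03 and did not pass. The other CD74 probe sets gave 0.19 and −0.17, and neither passed on its own. Of 32 other antiviral effectors 5 (15.6%) rose and 3 (9.38%) fell, shares near those of all genes, with PARP14 up by 0.64 and TRIM14 down (−0.74), and the chemokine CXCL10 up by 0.37 (adjusted p = 0.041).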

How the data were processed

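Gene expression was measured on 14 one-colour Affymetrix U133 Plus 2.0 arrays, 1 per culture. The authors made the deposited log2 values by RMA, with R 3.5.1 named in the submitters' processing notes and BRB-ArrayTools in the methods, which state that outlier arrays were excluded, judged by deviation in NUSE and RLE quality plots. The labels give DMEM as medium and the methods RPMI. No further normalization or filter was applied. After 62 controls, 41091 probe sets named 1 gene, 1801 several and 11721 none; 41037 were matched through Entrez identifiers, and 19775 genes remained.

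Dox+ was compared with Dox− per time point with limma 3.58.1 in R 4.3.3 (lmFit, eBayes, two-sided), with Benjamini-Hochberg adjustment and a threshold of 0.05, and changes of effect with interaction contrasts and arrayWeights. Scripts were tested on simulated data, on which false calls by the interaction contrast exceeded the share its threshold implies. Groups came from the sample labels. Genes were members of the list. Values on every array are given for those past the test at 48 h with a difference of at least 0.5 or past the test earlier; other genes of the pathway were named by size of change. The genes and lists were chosen with earlier results of these data known. The alternatives changed the arrays fitted (14 together), the filter (dim genes dropped), the probe set (most variable, each tested separately, or none of type _x_at), the normalization (quantile), the moderation (trend and robust), the replicate number (as a block), the test (Student's t-test) and the replicates (each array dropped in turn). Promoters were RefSeq windows of GRCh38.p14. The number of arrays limits the precision. Tables and figures were made with the data.table package (1.17.8), pandas 2.3.3, numpy 2.4.6 and matplotlib 3.10.9 in Python 3.11.15.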

Additional observations from a re-analysis of the deposited data

Results flagged for a closer look

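For 7 genes the effect of doxycycline differed between time points, by a test of the difference itself that passed with and without array weights. The 48 h effect exceeded the 12 h effect by 1.21 (log2) for TRIM22, 0.94 for LGALS3BP, 1.07 for IRF9, 0.75 for TAPBP and 0.87 for HLA-E. It exceeded the 24 h effect by 0.78 for IRF9, 0.78 for PSMB9 and 0.77 for HLA-B. For LGALS3BP the 48 h difference was 0.08 and the 12 h difference −0.86, and for HLA-E 0.38 and −0.48, so part of each value is a negative difference at 12 h that did not pass in the fit of the 12 h arrays (adjusted p = 0.113 and 0.263, limma) and passed with all arrays in 1 fit (adjusted p = 0.00231 and 0.017). On simulated data, false calls by this contrast exceeded the share its threshold implies.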

How the results depend on the processing

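The number of genes up at 48 h was 19, lay between 14 and 20 over the alternatives and between 16 and 19 without single arrays. All 14 arrays in 1 fit gave 1 up and 4 down at 12 h (5.26% and 3.25% of all genes), 6 up at 24 h (5.59%), and 14 up (7.27%) and 0 down (6.88%) at 48 h; the rises of IFI6, IFIT1, IRF1, NMI and B2M were lost. Student's t-test lost those of IFI6, IFIT1, OAS3, GBP1, GBP2 and NMI and added DTX3L. Over all genes the t-test called 1540 up and 1937 down at 48 h, where the main fit called 2229 and 2549. The 2 falls at 48 h became 1 with the most variable probe set, 0 with every probe set on its own, 0 by the t-test and 0 to 2 without single arrays, and 3 with dim genes left out, with _x_at probe sets left out or with trend and robust options. The 2 rises at 24 h became 1 with every probe set on its own, 0 by the t-test and 1 to 2 without single arrays. The t-test called 0 of all genes at 12 h and at 24 h, so its counts there say nothing of these genes. Trend and robust options gave 1 down at 24 h (B2M). Without array weights 9 effects were larger at 48 h than at 12 h, and 5 with them. How many of all genes passed without weights is not given here, so the 9 have no share over all genes beside them. The 8 genes with values on every array kept their direction and their call at 48 h in every alternative in which they were measured. OAS3 and XAF1 changed sign with the most variable probe set (−0.01 and 0.00).

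The replicate numbers were checked for pairing. Deviations of same-numbered arrays correlated at 0.255 at 12 h, −0.11 at 24 h, and 0.109, 0.0892 and 0.102 at 48 h. These values are small, but 6 of 6 arrays at 48 h correlated best with their own number. A weak pairing is therefore not excluded, and the main fit did not use the numbers. The replicate block gave 1 down at 12 h (LGALS3BP), 3 up at 24 h, and 19 up and 2 down at 48 h. Over all genes the block called 84 down at 12 h, where the main fit called 4. It called 641 of all genes up at 24 h, where the main fit called 596. At 48 h it called 2223 of all genes up and 2496 down, where the main fit called 2229 and 2549. Signal over background was not measured, and at 12 h and 24 h 2 arrays per group limit what can be called.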
